A study of Mus musculus with 12 samples.

Results

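Apoptotic cells are cleared by receptors that recognise phosphatidylserine, a lipid that dying cells turn to their outer surface, either directly or through soluble bridging proteins. The 8 genes described here encode the receptor tyrosine kinases Mertk, Axl and Tyro3 (together the TAM receptors), their ligands Gas6 and Pros1, the bridging protein Mfge8, the direct phosphatidylserine receptor Timd4 and the scavenger receptor Lrp1. They were found by symbol among the probe sets whose platform annotation names a single gene: 12 of 34945 such probe sets named a member, and the members are 8 of 18193 genes tested. The genes were chosen by name, with earlier results of these data known. Where several probe sets named a gene, the brightest was selected on its mean level across the 12 arrays, a measure that does not use any difference between groups.

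Expression was measured on 12 Affymetrix arrays, 3 in each of 4 groups. Primary cultures of whole bone marrow, taken from C57BL/6 females 6 weeks old, received 1 nM 17β-estradiol (17βE in the labels), the main circulating estrogen, for 1 week, or were left untreated as controls. From both kinds of culture c-kit+ cells, labelled as stem cells, and CD44+ cells, labelled as stromal cells, were profiled. The labels name no deletion or transgene. Whether a replicate stands for its own culture or animal is not stated, and the p-values therefore measure only the spread between these samples, which may be technical.

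The TAM receptors bind phosphatidylserine only through Gas6 and Pros1, vitamin K dependent proteins that hold the lipid with one end and the receptor with the other. Mfge8 links the same lipid to αv integrins, while Timd4 tethers the dying cell with no intermediary and Lrp1 takes up cargo bound to calreticulin and many other ligands. Bone marrow macrophages use Mertk and Axl to clear the many blood cells that die there and the nuclei shed by erythroblasts, and TAM signalling is known to dampen inflammatory responses.

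The windows of 250 bases before the annotated start are shown for Mertk and Gas6, the receptor and the ligand whose groups did not overlap between the cell fractions in both cultures, and for the related receptor Axl, whose groups did overlap. All 8 members were matched by symbol to RefSeq promoters of build GRCm38.p6. The sequences run 5′ to 3′ on the strand of the gene, and capitals mark GGTCA, the half-site that nuclear receptors such as the estrogen receptor bind, and GGGCGG, the core of a GC box, each on either strand (as TGACC and CCGCCC when reversed). The window of Mertk is chr2:128698665-128698914 on the + strand, that of Gas6 chr8:13494536-13494785 on the - strand and that of Axl chr7:25788734-25788983 on the - strand.
Mertk: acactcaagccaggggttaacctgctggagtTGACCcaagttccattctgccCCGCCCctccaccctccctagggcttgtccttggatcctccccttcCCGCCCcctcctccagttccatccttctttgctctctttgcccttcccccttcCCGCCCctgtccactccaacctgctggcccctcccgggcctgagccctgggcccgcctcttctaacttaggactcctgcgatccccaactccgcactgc
Gas6: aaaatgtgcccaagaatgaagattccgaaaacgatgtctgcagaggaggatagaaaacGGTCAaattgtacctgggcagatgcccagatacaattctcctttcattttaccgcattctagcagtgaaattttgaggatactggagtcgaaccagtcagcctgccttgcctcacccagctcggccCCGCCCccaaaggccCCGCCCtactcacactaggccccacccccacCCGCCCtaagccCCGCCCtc
Axl: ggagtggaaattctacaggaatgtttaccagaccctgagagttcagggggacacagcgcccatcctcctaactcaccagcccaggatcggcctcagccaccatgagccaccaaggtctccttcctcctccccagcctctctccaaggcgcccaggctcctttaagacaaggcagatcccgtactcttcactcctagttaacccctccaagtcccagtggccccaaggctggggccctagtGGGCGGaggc
Mertk held 1 GGTCA and 3 GGGCGG, Gas6 held 1 and 4, and Axl held 0 and 1. GGTCA stood in 3 of the 8 members (Mertk, Gas6 and Timd4) and in 35.2% of all 32851 windows of the same length. GGGCGG stood in 7 of 8, all but Timd4, and in 32.7% of all windows. The full palindrome GGTCANNNTGACC, which holds GGTCA in each arm, was in no member and in 0.0639% of all windows (21 of them). A match describes the letters of this window and is no measurement of binding.

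The label of the c-kit+ fraction was not borne out by Kit itself. Kit, the receptor that defines the fraction, lay between 3.79 and 4.22 (log2 level) on all 12 arrays and differed by -0.04 between c-kit+ and CD44+ control arrays (adjusted p = 0.938, limma). Cd44 lay between 11.76 and 12.46 on all 12 arrays and differed by -0.19 (adjusted p = 0.615). The macrophage genes Csf1r (13.86 to 14.11), Lyz2 (13.91 to 14.35) and Ctss (13.76 to 14.22) were near the top of the scale, whose highest value was 14.81, on every array of both fractions. The fractions are therefore called by their labels alone.

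Other features also separated the fractions. Of 11 measured stromal and osteoblast markers 6 were lower in c-kit+ than in CD44+ control arrays and none higher (7 and none in 17βE cultures), led by Col1a2, a chain of type I collagen (-3.37, adjusted p = 0.000763), and their summed level was 58.01 to 61.10 in c-kit+ control, 57.22 to 64.94 in c-kit+ 17βE, 71.86 to 81.02 in CD44+ control and 74.54 to 83.39 in CD44+ 17βE arrays. Of 10 macrophage and monocyte markers 2 were higher in c-kit+ control arrays (Fcgr1 and Mrc1) and none lower (1, Mrc1, and none in 17βE cultures), with summed levels of 124.69 to 126.24 (c-kit+ control), 124.10 to 127.32 (c-kit+ 17βE), 121.46 to 123.54 (CD44+ control) and 123.49 to 125.32 (CD44+ 17βE). The call on Fcgr1 was lost in 5 of 12 fits with 1 array left out and that on Mrc1 in 6 (control) and 5 (17βE). The gap between control probes at the 3′ and at the 5′ end of Gapdh, a measure of RNA quality and amplification, was 2.83 to 4.31 on the 6 CD44+ arrays and 4.23 to 6.17 on the 6 c-kit+ arrays. The same gap for the actin gene Actb was 1.52 to 2.14 on the CD44+ and 2.34 to 4.68 on the c-kit+ arrays, with no overlap.

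Markers of other cell types moved too. Of 7 stem and progenitor markers, 1 was lower in the c-kit+ fraction in control cultures, Hoxa9, a homeobox factor of early progenitors (-2.21, adjusted p = 0.00396), and 2 in 17βE cultures, Hoxa9 (-2.98, adjusted p = 0.000479) and Cd34 (-1.43, adjusted p = 0.0318, limma). Their summed level was 34.71 to 35.33 in c-kit+ control and 34.69 to 35.80 in c-kit+ 17βE arrays, below the 38.43 to 40.08 of CD44+ control and 38.43 to 41.12 of CD44+ 17βE arrays. Of 8 dendritic cell markers, 2 were lower in control cultures (Cd74 -1.41 and H2-Ab1 -1.10) and 1 in 17βE cultures (H2-Ab1 -1.11), and of 6 osteoclast markers 1 (Dcstamp -1.04) and 2 (Dcstamp -0.83 and Ctsk -0.96) were lower. Others went the other way without passing: 2 of 8 dendritic and 2 of 6 osteoclast markers lay above 0 in control cultures, and 4 and 3 in 17βE cultures. Of 4 adipocyte markers Fabp4 was higher in control cultures (1.17, adjusted p = 0.0219), where the median of the 4 was -0.03. The other 6 of 12 marker lists held no call between the fractions. Among these, 0 of 7 neutrophil markers lay above 0 in control cultures (median -0.46) and 1 in 17βE cultures (median -0.12). Their summed level was 31.04 to 33.23 in c-kit+ control and 35.45 to 35.99 in CD44+ control arrays. In 17βE cultures it was 31.79 to 33.33 in c-kit+ and 33.48 to 36.37 in CD44+ arrays. With 1 array left out the calls on Cd34, H2-Ab1, Dcstamp, Ctsk and Fabp4 were lost in some fits, and that on Hoxa9 in none. The arrays of the comparison alone (adjusted p = 0.0689, limma) and the Gapdh gap as a covariate each ended the call on Hoxa9 in control cultures.

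Mertk, the TAM receptor used most by macrophages, was higher in the c-kit+ fraction in both kinds of culture. In control cultures its log2 level was 10.09, 10.00 and 10.12 in c-kit+ replicates 1, 2 and 3, against 9.19, 9.25 and 8.69 in CD44+ replicates 1, 2 and 3. The groups did not overlap, the c-kit+ arrays lay within a narrow band, and CD44+ control replicate 3 was the lowest of all. The difference of 1.02 (SE 0.14, 95% confidence interval 0.72 to 1.33) is 2.03-fold, with adjusted p = 0.00170 (limma, Benjamini-Hochberg over all 18193 genes, threshold 0.05). Because these are bulk samples, fewer cells of a type and less RNA per cell cannot be told apart.

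In 17βE cultures Mertk read 10.00, 10.03 and 10.12 in c-kit+ cells and 8.97, 9.19 and 9.28 in CD44+ cells. These groups did not overlap either, and the difference of 0.91 (SE 0.14, interval 0.60 to 1.21, 1.87-fold) passed with adjusted p = 0.00253 (limma). Over all 6 arrays of each fraction Mertk lay between 10.00 and 10.12 in c-kit+ cells and between 8.69 and 9.28 in CD44+ cells. The call stood in both cultures under all 10 other settings and in all 12 fits with 1 array left out. With the Gapdh gap as a covariate, chosen after seeing the data, the difference was 0.97 in control cultures (adjusted p = 0.0281) and 0.86 in 17βE cultures (adjusted p = 0.0313). The part of the stromal, macrophage and other cell type markers in this difference was not tested.

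Mertk was the only member to pass in either comparison of the fractions. In control cultures 1 of 8 members passed, in the higher direction, where 2.30% of all genes passed in either direction (418 genes) and 0.539% passed as higher in c-kit+ cells. In 17βE cultures 1 of 8 passed, where 2.65% of all genes did (483 genes), 0.324% as higher. Groups did not overlap for 2 members in control cultures (Mertk and Gas6), against 15.7% of all genes, and for 3 in 17βE cultures (Mertk, Gas6 and Timd4), against 18.2%. The members' median difference was near 0 in control cultures (-0.00024) and 0.12 in 17βE cultures, beside medians over all genes of 0.0052 and 0.026.

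**Figure D1:**
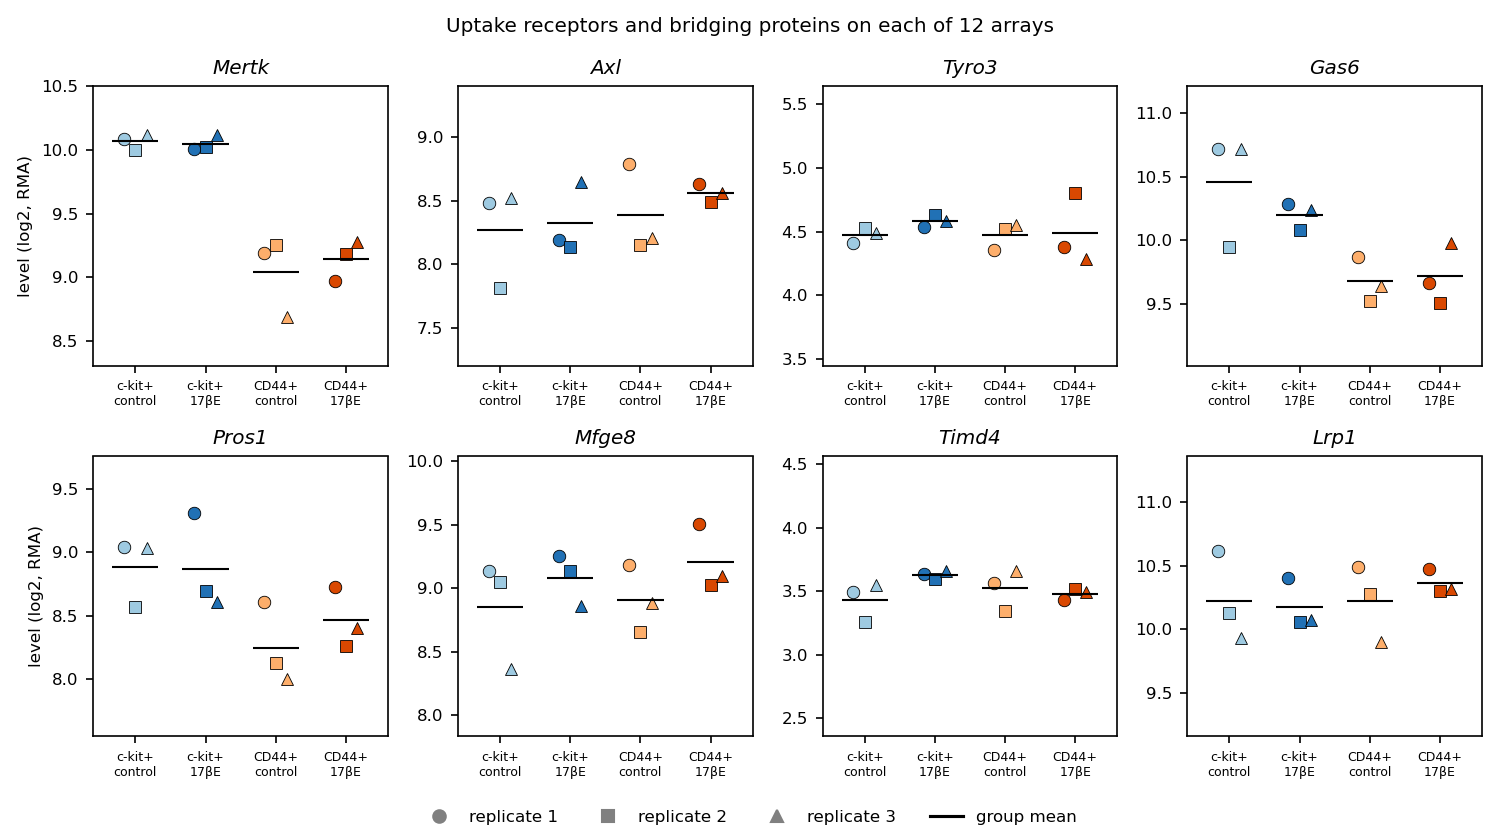
Log2 level (vertical axis, RMA values) of each of the 8 genes on each of the 12 arrays, by group (horizontal axis). Symbols mark the replicate number, horizontal lines the group means, and every panel spans the same range of log2 units. Mertk lies between 10.00 and 10.12 on the c-kit+ arrays and between 8.69 and 9.28 on the CD44+ arrays, with no such gap for Axl or Lrp1.

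Axl, the TAM receptor whose level rises in inflamed macrophages, did not follow Mertk. It read 8.48, 7.81 and 8.52 in c-kit+ control, 8.19, 8.14 and 8.64 in c-kit+ 17βE, 8.79, 8.15 and 8.21 in CD44+ control and 8.63, 8.49 and 8.56 in CD44+ 17βE arrays. The fractions overlapped in both cultures, and c-kit+ control replicate 2 was the lowest array. The c-kit+ minus CD44+ difference was -0.11 in control cultures (SE 0.21, interval -0.57 to 0.34, adjusted p = 0.886) and -0.23 in 17βE cultures (adjusted p = 0.867, both limma). Without c-kit+ control replicate 2 the control value turned to 0.12 (adjusted p = 0.822). The interval in control cultures lies wholly below that of Mertk, but a difference between these genes was not tested.

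Tyro3, the TAM receptor best known from the nervous system, was dim. Its 12 values ran from 4.28 to 4.80, with group means of 4.47, 4.58, 4.47 and 4.49 in c-kit+ control, c-kit+ 17βE, CD44+ control and CD44+ 17βE arrays. Probe sets of 6 Y-linked genes, which have no template in these female mice, read 3.04 to 6.37 (all but Sry at 4.54 or less). The values of Tyro3 lay inside that range, those above 4.54 only through Sry, so no clear signal above background was shown for it. Its difference between the fractions was -0.00 in control and 0.10 in 17βE cultures.

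Both TAM ligands had higher means in the c-kit+ fraction, and neither passed the test. Gas6, which binds all 3 TAM receptors, read 10.72, 9.94 and 10.72 in c-kit+ control and 9.87, 9.52 and 9.64 in CD44+ control arrays. The groups did not overlap, but c-kit+ control replicate 2 stood well below the other two and close to the highest CD44+ array. The difference was 0.78 (SE 0.19, interval 0.36 to 1.20, 1.72-fold), with unadjusted p = 0.00142 and adjusted p = 0.0569 (limma).

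The call on Gas6 depended on 1 array and on the fit. Without c-kit+ control replicate 2 the difference was 1.04 and passed (adjusted p = 0.00530), and it also passed with array weights (0.87, adjusted p = 0.00722), the median of each array set equal (0.88, adjusted p = 0.0329), trended and robust moderation (0.78, adjusted p = 0.0445) and the mean of its probe sets (0.40, adjusted p = 0.0425). With the Gapdh gap as a covariate it was 0.76 and did not pass (adjusted p = 0.301). In 17βE cultures Gas6 read 10.29, 10.08 and 10.24 in c-kit+ and 9.66, 9.51 and 9.98 in CD44+ arrays. Again the groups did not overlap, by a narrow gap, and the difference of 0.48 (SE 0.19) had adjusted p = 0.379.

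Pros1, protein S, which also serves as an anticoagulant cofactor, read 9.04, 8.57 and 9.03 in c-kit+ control, 9.30, 8.70 and 8.61 in c-kit+ 17βE, 8.61, 8.13 and 8.0 in CD44+ control and 8.72, 8.26 and 8.41 in CD44+ 17βE arrays. The fractions overlapped in both cultures, with replicate 1 of each CD44+ group reaching into the c-kit+ range. The difference was 0.63 in control cultures (SE 0.21, interval 0.18 to 1.09, adjusted p = 0.180) and 0.41 in 17βE cultures (adjusted p = 0.608, both limma). With the Gapdh gap as a covariate these became 0.17 (adjusted p = 0.859) and -0.01 (adjusted p = 0.993), and with array weights the control difference was 0.70 and passed (adjusted p = 0.0294). Without c-kit+ 17βE replicate 1 the difference in 17βE cultures was 0.19 (adjusted p = 0.986). Of the ligands, Pros1 moved most with the RNA measure, while Gas6 stayed near its size.

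Mfge8, the milk fat globule protein that bridges dying cells to integrins, did not separate the fractions. It read 9.13, 9.05 and 8.36 in c-kit+ control, 9.26, 9.13 and 8.86 in c-kit+ 17βE, 9.19, 8.66 and 8.88 in CD44+ control and 9.51, 9.02 and 9.09 in CD44+ 17βE arrays. All groups overlapped, and c-kit+ control replicate 3 was the lowest array. The c-kit+ minus CD44+ difference was -0.06 in control and -0.12 in 17βE cultures (adjusted p = 0.943 and 0.952, limma). With the Gapdh gap as a covariate these were -0.43 (adjusted p = 0.612) and -0.46 (adjusted p = 0.578).

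Timd4, a receptor of resident macrophages, ran from 3.26 to 3.66 on all 12 arrays, inside the range of the Y-linked probe sets, so no signal above background was shown. In 17βE cultures its groups did not overlap between the fractions (3.59 to 3.66 in c-kit+ and 3.43 to 3.52 in CD44+ cells), yet the difference was 0.15 with adjusted p = 0.795 (limma).

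Lrp1, the large scavenger receptor, was at a like level in every group. It read 10.62, 10.13 and 9.93 in c-kit+ control, 10.40, 10.06 and 10.08 in c-kit+ 17βE, 10.49, 10.28 and 9.90 in CD44+ control and 10.48, 10.30 and 10.32 in CD44+ 17βE arrays. The groups overlapped, and the difference between the fractions was 0.00 in control cultures (SE 0.18, interval -0.39 to 0.40, adjusted p = 0.999) and -0.19 in 17βE cultures (adjusted p = 0.887, limma). With the Gapdh gap as a covariate these were -0.40 (adjusted p = 0.483) and -0.55 (adjusted p = 0.187).

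Of the 8 members, 4 had a second single-gene probe set, which the rule set aside as dimmer. The means over 12 arrays of the probe set used and the other were 8.38 and 3.04 for Axl, 4.51 and 3.21 for Tyro3, 10.01 and 5.05 for Gas6 and 10.25 and 7.42 for Lrp1. The second Gas6 probe set differed by 0.03 between the fractions in control cultures, where the brighter one differed by 0.78. The second Lrp1 probe set varied most, from 6.21 to 9.09: it read 8.55, 7.62 and 9.09 in c-kit+ control, 7.63, 7.50 and 6.66 in c-kit+ 17βE, 7.90, 7.30 and 6.21 in CD44+ control and 7.42, 6.66 and 6.5 in CD44+ 17βE arrays. It was highest in c-kit+ control arrays, without passing for 17βE in c-kit+ cells (-1.16, SE 0.44, adjusted p = 0.887 over all single-gene probe sets, limma) or between the fractions in control cultures (1.29, adjusted p = 0.213). The 2 Lrp1 probe sets thus gave different pictures of the same gene, and which parts of the transcript they cover was not analysed here.

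No member passed the test for estradiol in either fraction. In c-kit+ cells 0 of 8 passed, where 0.181% of all genes did (33 genes), and the differences ran from -0.26 for Gas6 to 0.24 for Mfge8, with adjusted p = 0.999 for every member (limma). The value of Mertk was -0.02 with an interval of -0.32 to 0.29, which leaves out a change as large as that between the fractions. Timd4 (0.20, interval -0.04 to 0.43) and Tyro3 (0.11) had groups that did not overlap, 2 of 8 members against 7.81% of all genes, both at the dim levels given above. The Gas6 value grew in size without 1 array: leaving out c-kit+ control replicate 2 it was -0.52, still without passing (adjusted p = 0.478, limma). The Mfge8 value shrank instead, to -0.01 without c-kit+ control replicate 3.

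In CD44+ cells 0 of 8 members passed, where 0.291% of all genes did (53 genes), and no member had groups that did not overlap, against 12.7% of all genes. The differences ran from -0.04 for Timd4 to 0.30 for Mfge8 (interval -0.15 to 0.75, adjusted p = 0.949, limma), and 7 of 8 lay above 0, where 53.2% of all genes did. Mertk differed by 0.10 (interval -0.20 to 0.41) and Pros1 by 0.22. The Mertk value turned to -0.08 without CD44+ control replicate 3 and to -0.07 with array weights, and that of Tyro3 (0.01) to -0.15 without CD44+ 17βE replicate 2. With the replicate number as a block, which the pairing check allowed here, 101 genes passed in place of 53 and still no member. Array weights gave 1405 genes and 1 member, Mfge8 (0.49, adjusted p = 0.0369).

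The difference of the estradiol effects between the fractions passed for no member and for no gene (0.00%) by limma, while 296 genes, 1.63% of all, had an unadjusted p below the threshold and none of them was a member. These values ran from -0.30 for Gas6 to 0.24 for Timd4. Averaged over both fractions, 0 of 8 members passed where 0.951% of all genes did (173 genes). Mfge8 had the largest average, 0.27 (SE 0.15, interval -0.05 to 0.59, unadjusted p = 0.0925, adjusted p = 0.836, limma). It was higher with 17βE than in the control of the same replicate number in 6 of 6 cases, by 0.12, 0.09 and 0.50 in c-kit+ and 0.32, 0.37 and 0.21 in CD44+ cells. The pairing check did not allow pairs by number in c-kit+ cells, and the share of all genes with 6 of 6 was not computed. Mfge8 was singled out here for its average, so the count is no further support.

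**Figure D2:**
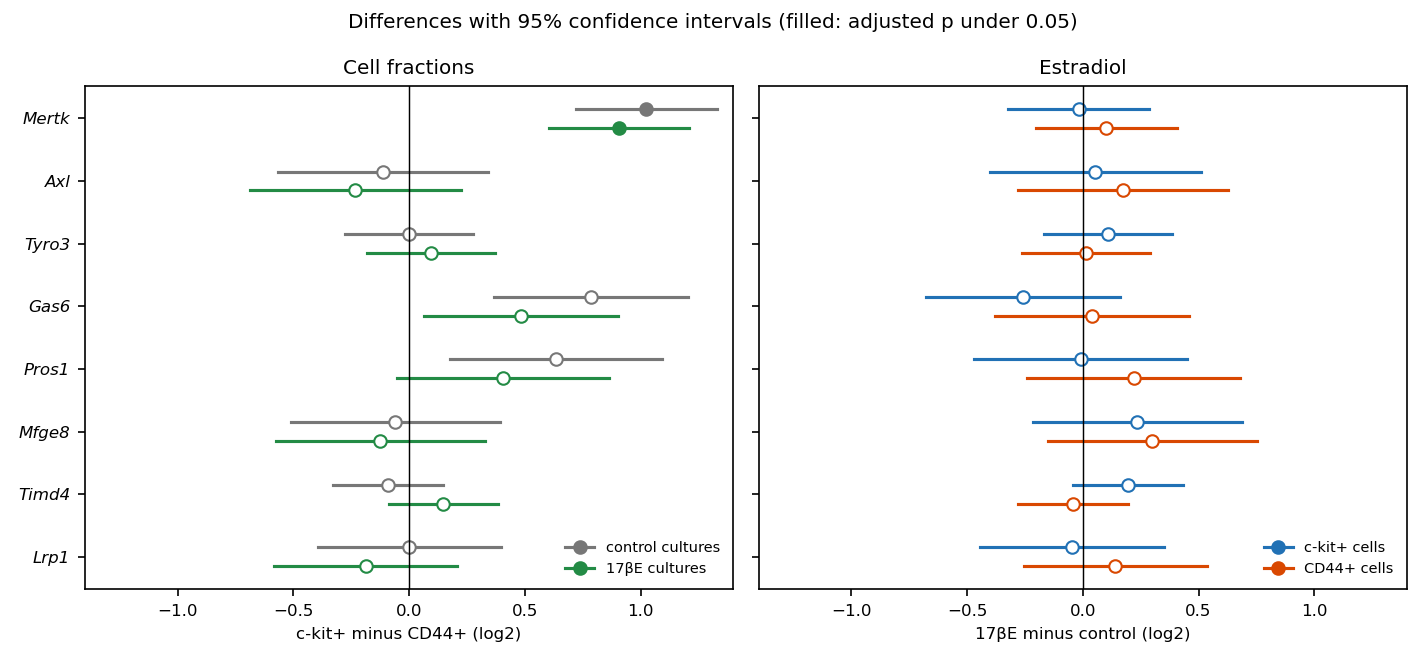
Differences in log2 level (horizontal axes) with 95% confidence intervals for the 8 genes, between the fractions in each culture (left) and between 17βE and control in each fraction (right), 3 arrays against 3. Filled points passed an adjusted p of 0.05: Mertk at 1.02 and 0.91 on the left and no gene on the right.

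Some members moved with the replicate number of the labels. Replicate 1 was the highest of its 3 arrays in all 4 groups for Pros1, Mfge8 and Lrp1, 3 of 8 members against 5.23% of all genes (951 genes). Replicate 2 was the lowest in all 4 groups for Axl and Gas6, 2 of 8 members against 1.26% of all genes (229 genes). Mertk, Tyro3 and Timd4 had no such order. These orders were picked after the values were seen. The others held no member: replicate 2 highest (1.19% of all genes), replicate 3 highest (2.64%), replicate 1 lowest (3.95%) and replicate 3 lowest (5.39%). What the number stands for is not given in the labels.

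**Figure D3:**
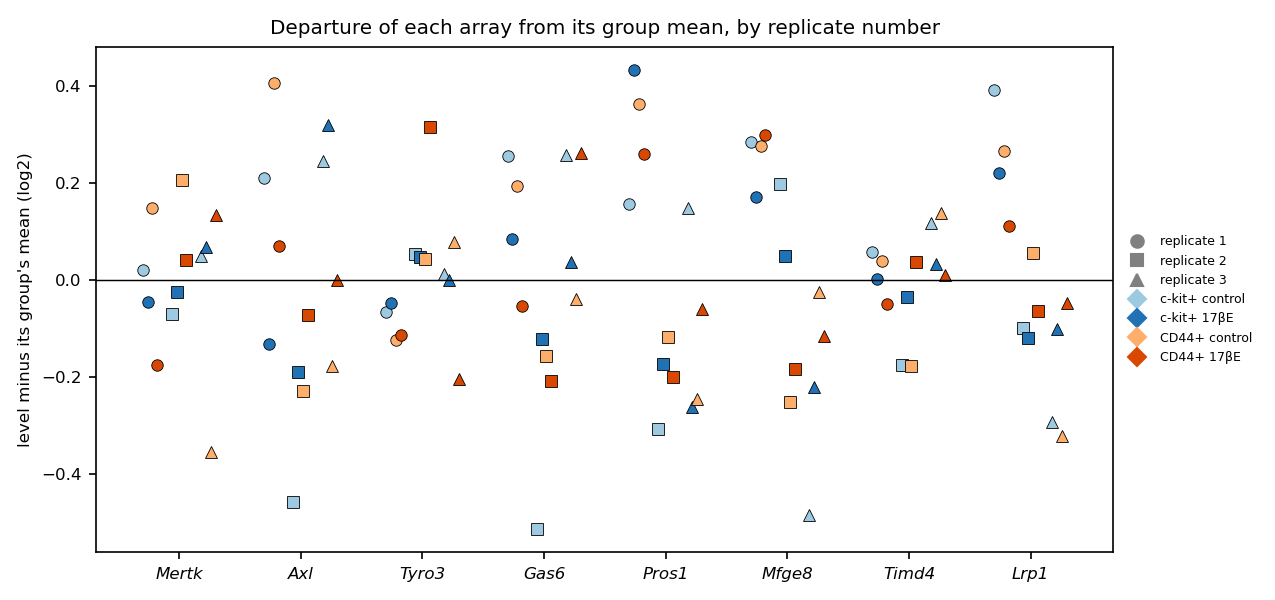
Log2 level of each array minus the mean of its group (vertical axis) for the 8 genes (horizontal axis), with symbols for the replicate number and colours for the group. For Pros1, Mfge8 and Lrp1 all 4 circles (replicate 1) lie above the other arrays of their groups, and for Axl and Gas6 all 4 squares (replicate 2) lie below.

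The genes most like the 3 most variable members were found by Pearson correlation over the 12 arrays, among 9097 genes at or above the median level. These values describe arrays that share 2 fractions, one processing and the RNA measures above, so they carry no p. For Mertk (SD over the arrays 0.53) they were B3galnt1 (r = 0.987), a glycosyltransferase, Pml (0.98), the organiser of nuclear bodies, and Ncoa4 (0.966), the receptor for ferritin turnover. For Gas6 (SD 0.42) they were Npl (0.944), an enzyme that splits sialic acid, Cnrip1 (0.929) and Hpse (0.916), heparanase. For Pros1 (SD 0.38) they were Ammecr1l (0.967), Nkap (0.957) and Trim23 (0.956). B3galnt1 was higher in c-kit+ cells in control (0.74, adjusted p = 0.00321) and 17βE cultures (0.71, adjusted p = 0.00300), as was Ncoa4 (0.63, adjusted p = 0.00349, and 0.41, adjusted p = 0.0393, limma).

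The rest of the uptake pathway was read from 5 lists with 91 measured genes, none of them a member. The lists were chosen with earlier results of these data known, so the shares below describe them and are no test of the pathway. Between the fractions 6 of 91 were higher and 4 lower in c-kit+ cells in control cultures (11% against 2.30% of all genes), and 5 were higher and 6 lower in 17βE cultures (12.1% against 2.65%). With 17βE, 1 of 91 rose in c-kit+ cells (1.1% against 0.181%) and the same count in CD44+ cells (1.1% against 0.291%).

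Of 26 other receptors and opsonins, 3 were higher and 1 lower in c-kit+ control arrays, with a median of 0.13. The scavenger receptors Stab1 (0.79, adjusted p = 0.00994) and Stab2 (0.71, adjusted p = 0.0482), which bind phosphatidylserine, and the complement opsonin C1qb (0.55, adjusted p = 0.0294) were higher, and the bridging protein thrombospondin, Thbs1, was lower (-2.12, adjusted p = 0.00366, limma). Stab1 lost its call without CD44+ control replicate 3 (0.68, adjusted p = 0.0564), Stab2 in 9 of 12 fits with 1 array left out and C1qb in 3, while Thbs1 kept its call in all 12. The 6 arrays of the comparison alone ended all 4 calls (Thbs1 adjusted p = 0.0530), and Stab2 also missed the threshold with the replicate block (adjusted p = 0.0529) and over every probe set. C1qb missed it with quantile normalization and with the mean of probe sets. The group means of Stab2, 5.35 to 6.17, lay within the range of the Y-linked probe sets, through Sry alone. In 17βE cultures 2 were higher (Stab2 0.82, adjusted p = 0.0195, and C1qb 0.57, adjusted p = 0.0207) and 1 lower (Thbs1 -2.55, adjusted p = 0.000837). With 1 array left out the calls on Stab2 and C1qb in 17βE cultures were lost in 4 and 5 of 12 fits, and that on Thbs1 in none. None passed for 17βE in either fraction, although averaged over both Cd14, the lipopolysaccharide co-receptor that also tethers dying cells, rose by 0.43 (adjusted p = 0.0148), a call lost in 3 of 12 fits with 1 array left out.

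Of 27 genes of engulfment and digestion, 2 were higher and none lower in c-kit+ control arrays, with a median of 0.20. Abca1, which exports the cholesterol taken up with a dying cell, was higher by 1.01 (adjusted p = 0.00349) in control cultures, in all 12 fits with 1 array left out, and by 0.86 (adjusted p = 0.00695, limma) in 17βE cultures, where it missed the threshold without c-kit+ 17βE replicate 2 (0.79, adjusted p = 0.0524). The lysosomal nucleoside transporter Slc29a3 was higher by 0.44 and 0.45 (adjusted p = 0.0485 and 0.0404, limma), with calls lost in 11 and 9 of 12 such fits. Trended robust moderation, brighter genes only and the mean of probe sets each ended its calls in both cultures. Quantile normalization, the fit over every probe set and the arrays of the comparison alone also ended its call in control cultures. In 17βE cultures the adaptor Gulp1 was lower (-1.93, adjusted p = 0.0370, limma), a call lost in 7 of 12 fits with 1 array left out. That call was also lost with trended robust moderation, quantile normalization and the fit over every probe set.

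Of 9 nuclear receptors and other factors upstream, 1 was higher and 1 lower in each culture. Rxra, the partner of the lipid-sensing nuclear receptors that induce Mertk, was higher by 0.57 (adjusted p = 0.0226) in control and 0.51 (adjusted p = 0.0372) in 17βE cultures, and Klf4, a zinc finger factor, was lower by the values -0.97 (adjusted p = 0.0184) and -0.86 (adjusted p = 0.0327, limma). The calls on Rxra were lost in 4 and 7 of 12 fits with 1 array left out and those on Klf4 in 2 and 6. The mean of probe sets ended both calls on Rxra, and the arrays of the comparison alone ended those on Rxra and Klf4 in control cultures. Brighter genes only and trended robust moderation also ended the call on Rxra in 17βE cultures. Of 15 genes of TAM ligand carboxylation, shedding and feedback none passed between the fractions. Socs3, an inhibitor of cytokine signalling that TAM receptors induce, rose with 17βE by 0.77 in c-kit+ (adjusted p = 0.0469) and 0.75 in CD44+ cells (adjusted p = 0.0355, limma), and these calls were lost in 10 and 7 of 12 such fits. The arrays of the comparison alone ended both (adjusted p = 0.182 and 0.0807, limma). Median centring and the fit over every probe set also ended the call in c-kit+ cells, and the mean of probe sets that in CD44+ cells.

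Of 14 genes for signals of dying and healthy cells, with enzymes and receptors of such signals, 2 were lower and none higher in c-kit+ control arrays. Cd24a, a signal against being eaten, was lower (-3.11, adjusted p = 0.000103, and -3.15 in 17βE cultures, adjusted p = 9.54e-05), as was Cx3cr1, the receptor of the attractant fractalkine (-1.08, adjusted p = 0.0164, and -1.25, adjusted p = 0.00496, limma). Sphk1, which makes the attractant sphingosine-1-phosphate, was lower in 17βE cultures (-0.86, adjusted p = 0.0309, limma). Its group means there, 4.09 and 4.95, lay within the range of the Y-linked probe sets, 4.95 only through Sry. The call was lost with the mean of probe sets, with the arrays of the comparison alone and in 4 of 12 fits with 1 array left out. Cd24a lost its call in none of them, and Cx3cr1 lost that in control cultures without CD44+ control replicate 1 (-0.995, adjusted p = 0.0607) or c-kit+ control replicate 2 (-0.98, adjusted p = 0.0573). P2ry2, a receptor for released nucleotides, rose by 0.65 with 17βE averaged over both fractions (adjusted p = 0.0398), a call lost in 10 of 12, with the replicate block (adjusted p = 0.0535), and with quantile normalization or median centring. Its group means, 5.28 to 6.00, also lay within the range of the Y-linked probe sets, through Sry alone.

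Many of these calls changed when the RNA measure entered the fit. The Gapdh gap was mostly larger on c-kit+ (4.23 to 6.17) than on CD44+ arrays (2.83 to 4.31). It cannot be fully told apart from the fraction. The Actb gap, which did not overlap between the fractions, was not entered as a covariate. The SE of every lost call grew. Stab2 in control cultures (from 0.71, SE 0.17, to 0.93, SE 0.21) and Gulp1 in 17βE cultures (from -1.93, SE 0.45, to -2.07, SE 0.59) lost calls at larger differences, the others at smaller ones. With the Gapdh gap as a covariate, 5 of the 10 calls between the fractions in control cultures were kept and 5 lost, and in 17βE cultures 6 of 11 were kept and 5 lost. Abca1 (1.31, adjusted p = 0.00320, and 1.14, adjusted p = 0.00372), Thbs1, Klf4, Cd24a and Cx3cr1 kept their calls in both cultures, and Stab2 in 17βE cultures. Lost were those on C1qb (0.35, adjusted p = 0.384, and 0.40, adjusted p = 0.252), Rxra (0.45, adjusted p = 0.268, and 0.40, adjusted p = 0.332) and Slc29a3 (0.35, adjusted p = 0.390, and 0.36, adjusted p = 0.323, limma) in both cultures. Stab1 (0.62, adjusted p = 0.180) and Stab2 (0.93, adjusted p = 0.0595) lost theirs in control cultures, and Gulp1 (-2.07, adjusted p = 0.143) and Sphk1 (-0.63, adjusted p = 0.333, limma) in 17βE cultures. The part of the stromal and other cell type markers was not tested.

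**Figure D4:**
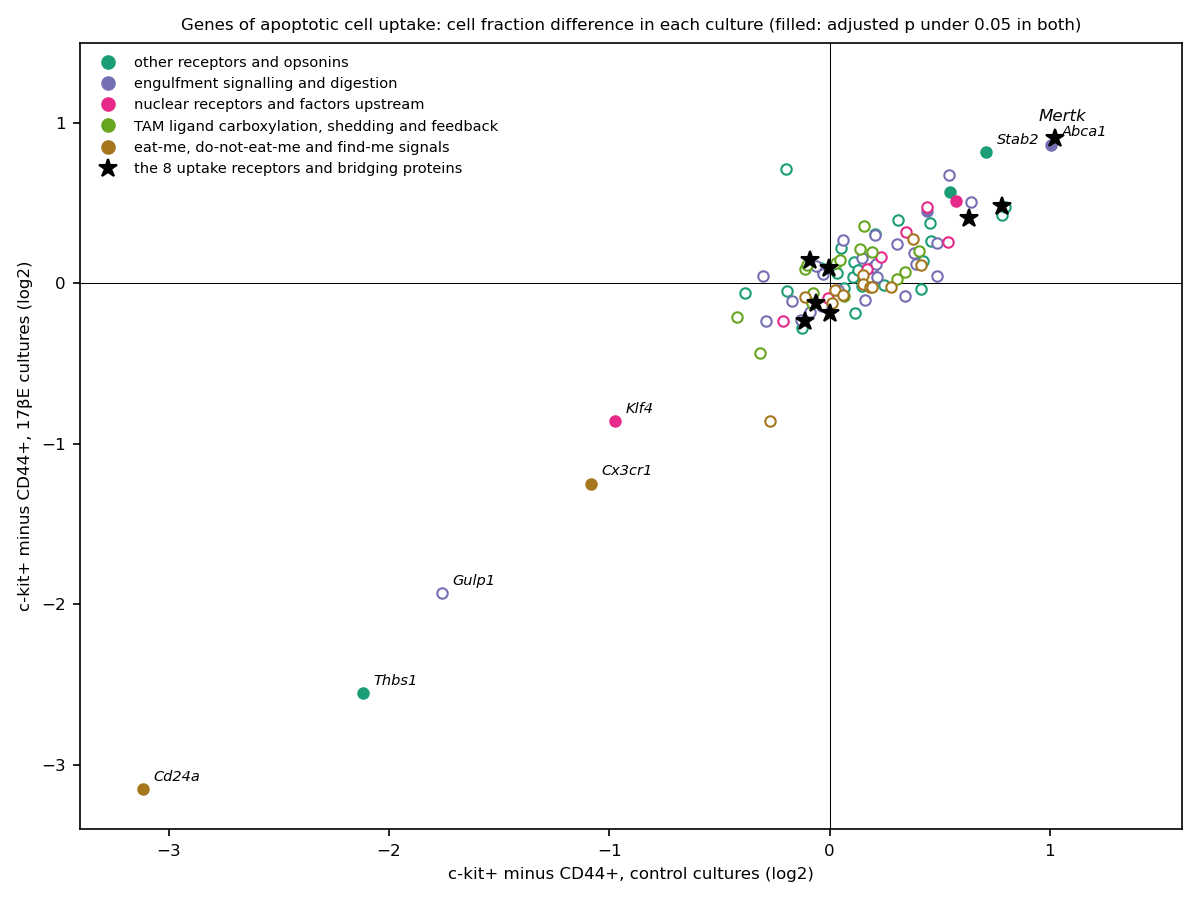
c-kit+ minus CD44+ difference in log2 level in control (horizontal axis) and 17βE cultures (vertical axis) for the 91 other genes of the uptake pathway, coloured by list, and for the 8 members (stars). Filled circles passed in both cultures. Mertk and Abca1 stand at the upper right, and Cd24a (-3.11 and -3.15) and Thbs1 (-2.12 and -2.55) at the lower left.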

How the data were processed

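Total RNA was amplified in 2 cycles, labelled with biotin and hybridized to Affymetrix arrays, per the labels' protocols. The deposited log2 values were made by the authors with RMA, per the submitters' processing notes (version not given in the sources used here). Values entered as deposited (2.47 to 14.81, array medians 4.75 to 4.84), with no filter. Of 45101 probe sets 64 were controls, 34945 named 1 gene, 932 several and 9160 none. The number of arrays limits the precision. No column of another series was used.

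limma 3.58.1 in R 4.3.3 fitted 1 mean per group over all 12 arrays, with empirical Bayes moderation and Benjamini-Hochberg adjustment over 18193 genes, for 6 comparisons, and was tested on simulated data. Named are all members, pathway genes that passed (at most 6 of a list and comparison), the 3 genes most like the 3 most variable members, and markers; Col1a2, Csf1r, Lyz2, Ctss and other markers that passed were picked after their values were seen. Members and lists were chosen with earlier results of these data known. Equal replicate numbers were taken to pair arrays where all 3 correlations of deviations from group means exceeded 0.1: this held for CD44+ control with 17βE arrays (0.303, 0.368, 0.322) and for the fractions in 17βE cultures (0.447, 0.192, 0.312), not for c-kit+ control with 17βE (0.345, 0.0916, 0.253) or the fractions in control cultures (0.175, 0.122, -0.208). Alternatives were quantile normalization, median centring, brighter genes only, the mean of probe sets, every probe set, array weights, trended robust moderation, the replicate block, a comparison's own arrays, each array left out and, added after seeing the data, the Gapdh gap as a covariate. Motifs and figures used Python 3.11.15, pandas 2.3.3 and matplotlib 3.10.9.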

Additional observations from a re-analysis of the deposited data

How the results depend on the processing

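Of 1028 member values recomputed over all comparisons, 987 counted as the same, 32 as moved and 9 came to pass. None lost a call. Values that passed in both fits counted as the same whatever their size. Those that passed in neither did so if they moved by less than 1 SE. A change of sign counted as a reversal only where a fit passed, and there was none. Signs of values that did not pass turned in some fits, as given above for Axl, Mertk and Tyro3. In c-kit+ minus CD44+ control cultures 2 members passed with median centring, 2 with the mean of probe sets, 2 with trended robust moderation, 3 with array weights and 3 with the replicate block (Gas6 adjusted p = 0.00930 and Pros1 adjusted p = 0.0208, limma), and 1 to 2 with 1 array left out; in CD44+ cells 1 passed for 17βE with array weights. Every other member count was the same under each alternative run, at 0 or 1. The count of all genes moved more. For 17βE in c-kit+ cells (33) it was 55 with array weights, 62 with the block, 2 with the arrays of the comparison alone and 10 to 45 with 1 array left out. For 17βE in CD44+ cells (53) it was 1405 with array weights (903 higher, 502 lower), 101 with the block and 22 to 97. Between the fractions in control cultures (418, 98 of them higher) it was 1058 with array weights (575 higher), 693 with the block (233 higher), 196 with 6 arrays (16 higher), 254 with the Gapdh covariate (35 higher) and 221 to 456. In 17βE cultures (483) it was 250 for brighter genes, 779 with array weights (214 higher, 565 lower) and 269 to 594. Averaged over both fractions (173) it was 275 over every probe set, 523 with array weights (365 higher, 158 lower), 272 with the block and 104 to 275. The difference of effects stayed at 0. The control arrays of the fractions share only a number: their correlations are in the methods, and the block there says nothing of the size of an effect. The block changed no other call on a member. The causes of these moves were not tested.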
